A study of Mus musculus with 8 samples.

Results

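The B cell identity genes examined here are 9 genes that mark the B lineage, Cd79a, Cd79b, Ms4a1, Cd22, Fcer2a, Cr2, Blk, Bank1 and Pax5, out of 24584 genes counted in lung. The genes were chosen by a rule that used measured values of this contrast, CPM in LPS + Tan against LPS mice, so their differences between the groups are given as a description and carry no test. The study asked whether tangeretin, a flavonoid of citrus peel, changes lung injury caused by lipopolysaccharide (LPS), and RNA-seq was used to compare the lung transcriptomes. Lungs came from male ICR mice aged 6 to 8 weeks, with wild-type genotype in the labels. The LPS group held 4 mice given 5 mg/kg LPS by intraperitoneal injection. The LPS + Tan group held 4 mice given 50 mg/kg tangeretin by the same route 30 min before the same dose of LPS. In both groups the lungs were taken 12 h after LPS, as the study's methods state. Neither untreated mice nor mice given tangeretin alone were analysed here, so every mouse had received LPS.

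B cells recognise antigen through a membrane immunoglobulin that signals by way of the CD79A and CD79B chains, whose cytoplasmic tails carry the activation motifs phosphorylated by Src family kinases. PAX5 commits lymphoid precursors to the B lineage and keeps the genes of this programme active, whereas plasma cells switch much of it off. In the lung, B cells are found in the capillary blood, in the interstitium and in bronchus-associated lymphoid tissue, and they are a minority of all cells.

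The reads counted per sample numbered 38895654 to 39931970. CPM is the count of a gene relative to all counted reads of the sample, scaled by TMM, and each log2 fold change compares LPS + Tan with LPS and is given with its standard error (SE) from edgeR. All 9 genes passed the filter on low counts, which left 15706 genes. Lung identity was plain in the markers of lung epithelium and endothelium, of which 8 of 8 were detected and of which Scgb1a1 was the most abundant, at a mean of 31364.5 FPKM. The B cell genes were low beside these. Their summed level was 45.6, 28.6, 38.4 and 34.6 CPM in LPS replicates 1 to 4 and 34.3, 33.1, 36.3 and 25.1 CPM in LPS + Tan replicates 1 to 4. The mean of this sum was 36.8 ± 7.14 CPM in LPS mice and 32.2 ± 4.89 CPM in LPS + Tan mice (SD, n = 4 each). These means lay less than 1 SD of the LPS mice apart, the groups overlapped, and the highest sample was LPS replicate 1 and the lowest LPS + Tan replicate 4. In bulk tissue, fewer B cells and less of these RNAs in each B cell cannot be told apart.

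Cd79a and Cd79b encode the signalling chains of the B cell receptor. Cd79a was at 8.72, 3.90, 4.55 and 5.75 CPM in LPS replicates 1 to 4 and at 4.65, 4.93, 4.55 and 3.90 CPM in LPS + Tan replicates 1 to 4. LPS replicate 1 stood above the other samples, LPS replicate 4 was also above all LPS + Tan mice, and the other LPS mice lay within the narrow LPS + Tan range. The log2 fold change of Cd79a was -0.35 with an SE of 0.24, and it was -0.07 when LPS replicate 1 was left out. Cd79b was at 11.4, 6.89, 10.4 and 8.63 CPM in the LPS group and at 7.60, 9.71, 9.99 and 8.55 CPM in the LPS + Tan group. Both its highest and its lowest value were in the LPS group, and its log2 fold change was -0.06 with an SE of 0.17. Per length, Cd79b was the higher chain in every sample, and the ratio of its FPKM to that of Cd79a was 1.39 ± 0.345 in LPS mice and 1.63 ± 0.216 in LPS + Tan mice (SD, n = 4 each). The ratio ran from 1.06 in LPS replicate 1 to 1.86 in LPS replicate 3, so the LPS group spanned all values of the LPS + Tan group.

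Among the surface proteins, Ms4a1 encodes CD20, Cd22 a sialic acid binding inhibitor of receptor signalling, Fcer2a the low-affinity IgE receptor CD23, and Cr2 the complement receptor CD21. Ms4a1 was at 7.95, 5.14, 8.28 and 6.92 CPM in LPS replicates 1 to 4 and at 7.41, 4.37, 7.37 and 4.05 CPM in LPS + Tan replicates 1 to 4. In the LPS + Tan group, replicates 1 and 3 lay within the LPS range and replicates 2 and 4 lay below all LPS values. The log2 fold change of Ms4a1 was -0.29 with an SE of 0.24, and it was -0.15 without LPS + Tan replicate 4 and -0.43 without LPS + Tan replicate 1. Cd22 was at 6.57, 6.51, 5.38 and 6.12 CPM in the LPS group and at 6.22, 5.44, 7.10 and 4.03 CPM in the LPS + Tan group. The highest and the lowest value of Cd22 were both in the LPS + Tan group, and its log2 fold change was -0.11 with an SE of 0.18.

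Fcer2a was at 1.23, 0.785, 1.88 and 0.570 CPM in the LPS group and at 0.886, 0.814, 0.656 and 0.806 CPM in the LPS + Tan group. The LPS mice spread around the LPS + Tan mice on both sides, with SDs of 0.579 and 0.0963 CPM, and the log2 fold change was -0.50 with an SE of 0.37, and -0.12 without LPS replicate 3. Cr2 was at 0.307, 0.228, 0.157 and 0.596 CPM in the LPS group and at 0.615, 0.102, 0.438 and 0.182 CPM in the LPS + Tan group. These are counts of 4 to 25 reads per sample, and the log2 fold change was 0.06 with an SE of 0.59.

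Blk encodes a Src family kinase of B cells, and Bank1 an adaptor of receptor signalling. Blk was at 2.17, 1.82, 1.28 and 1.27 CPM in the LPS group and at 1.45, 2.03, 1.46 and 1.14 CPM in the LPS + Tan group, with a log2 fold change of -0.11 and an SE of 0.27. Bank1 was at 2.63, 0.735, 1.80 and 1.76 CPM in the LPS group and at 1.94, 2.16, 1.24 and 1.17 CPM in the LPS + Tan group, with a log2 fold change of -0.09 and an SE of 0.37. For both genes LPS replicate 1 was the highest sample, and for Bank1 LPS replicate 2 was the lowest, so that its LPS + Tan values all lay within the LPS range.

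Pax5, the transcription factor of B cell commitment, was at 4.65, 2.56, 4.68 and 2.98 CPM in LPS replicates 1 to 4 and at 3.52, 3.48, 3.48 and 1.30 CPM in LPS + Tan replicates 1 to 4. The first 3 LPS + Tan mice were nearly equal and lay inside the LPS range, and LPS + Tan replicate 4 was below every other sample. The log2 fold change of Pax5 was -0.33 with an SE of 0.33, and -0.09 without LPS + Tan replicate 4. Pax5 shares exon positions with 5730488B01Rik and Gm12462 on the other strand, and whether the counting used strand is not given in the sources used here, so reads of these genes could have been mixed. The same holds for Cd22 and Gm29439 on its other strand, which was not among the counted genes.

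**Figure D1:**
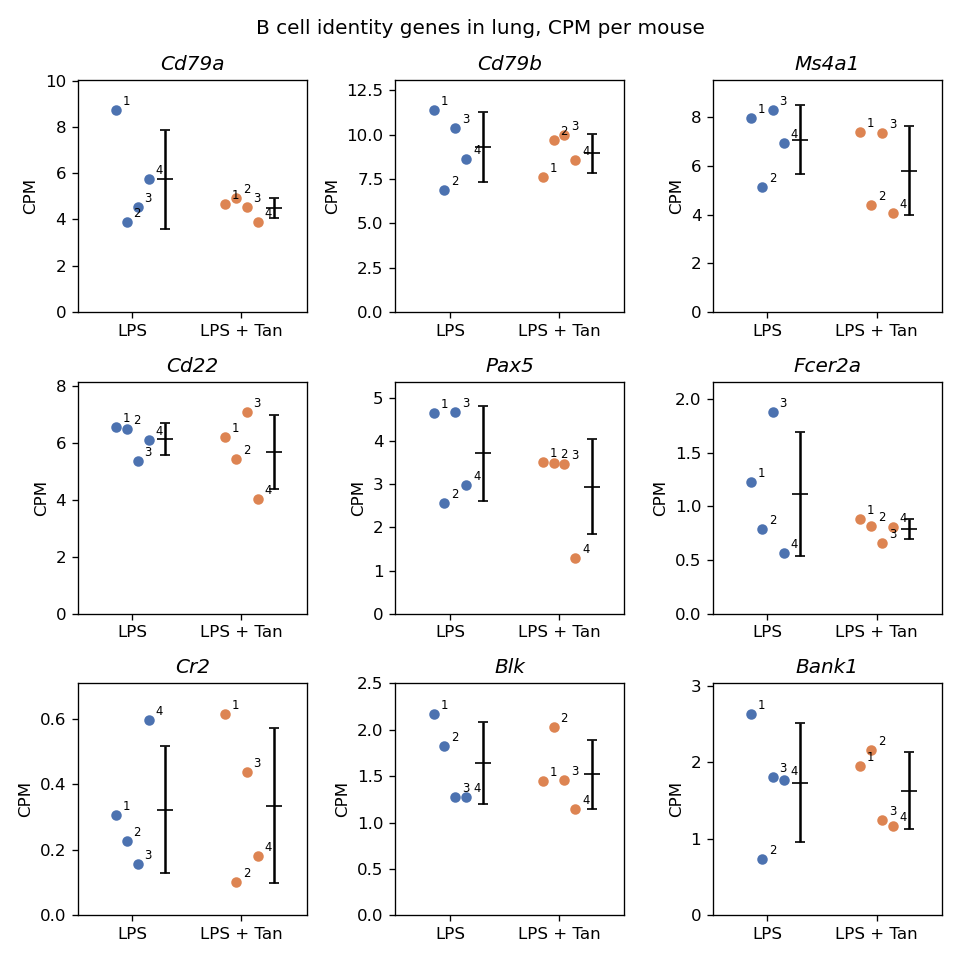
CPM of each B cell identity gene in the 4 LPS mice and the 4 LPS + Tan mice, 1 panel per gene, with replicate numbers beside the points and the mean ± SD at the right of each group. The groups overlap in every panel, and LPS + Tan replicate 4 is the lowest sample for 5 of the 9 genes.

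Across the 9 genes, 8 had a log2 fold change below 0 and 1 above it, where 48.2% of all tested genes were below 0. Their median was -0.11, with values from -0.50 to 0.06, beside a median of 0.01 over all tested genes. In 5 of the 9 genes the log2 fold change was smaller than its SE. The groups did not overlap in CPM for 0 of the 9 genes, where 2.73% of all tested genes were without overlap in either direction. The thresholds of the study, which are an absolute log2 fold change of more than 1 together with an unadjusted p below 0.05, were passed by 0 of the 9 genes and by 0.649% of all tested genes. Because the same contrast entered the choice of the genes, nothing is read from these counts. The number of genes with a log2 fold change below 0 was 5 of 9 without LPS replicate 1 and 5 of 9 without LPS + Tan replicate 4, and the median was then -0.07 and -0.03. It was 9 of 9 with a median of -0.35 without LPS replicate 2, and 8 of 9 with a median of -0.36 without LPS + Tan replicate 1.

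The spread between mice was wider than counting error for most of these genes. In the LPS group the coefficient of variation of Cd79a was 37.3%, where counting alone gives 6.70%, and in the LPS + Tan group it was 9.70%, where counting alone gives 7.45%. For Cd22 the coefficient was 8.90% in the LPS group and 22.9% in the LPS + Tan group, beside 6.47% and 6.62% from counting. For Fcer2a in the LPS + Tan group the spread of 12.2% was below the 17.8% that counting gives, while in the LPS group it was 51.9% beside 15.2%. For Cr2 the coefficients were 59.9% and 70.6%, where counting alone gives 28.3% and 27.2%. LPS replicate 1 was the highest sample for 4 of the 9 genes and LPS replicate 3 for 3 of them.

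Levels of different genes were compared per length, with the deposited FPKM averaged over the 8 mice. Cd79b was highest at 7.42 FPKM, followed by Cd79a at 5.10, Ms4a1 at 2.16 and Cd22 at 1.29 FPKM. Blk at 0.639, Bank1 at 0.478, Pax5 at 0.405, Fcer2a at 0.225 and Cr2 at 0.0447 FPKM followed. Each gene was above the next in 8 of 8 samples, except that Bank1 was above Pax5 in 5 of 8 and Pax5 above Fcer2a in 7 of 8. Bank1 and Pax5 therefore did not differ beyond the spread between mice. The receptor chains thus had the highest levels, the transcription factor and the kinase and adaptor were lower, and the receptors CD23 and CD21 had the lowest RNA levels.

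**Figure D2:**
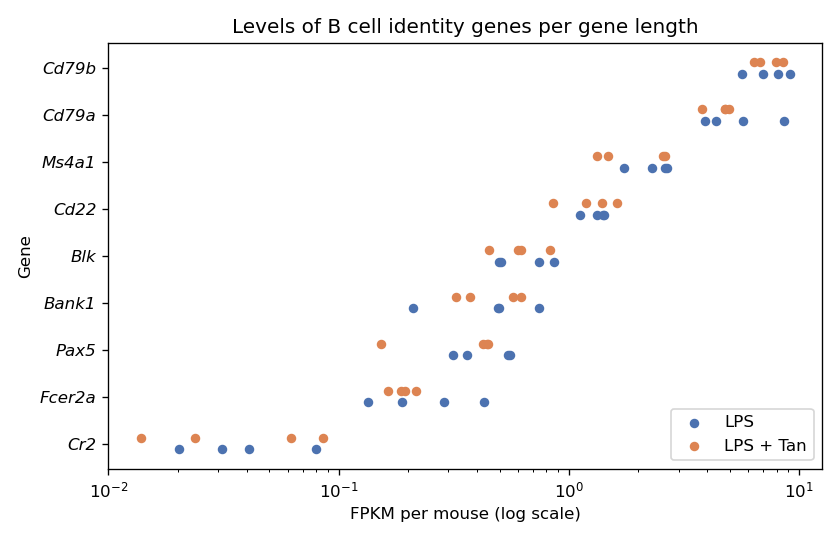
FPKM of each B cell identity gene in each mouse on a log axis, ordered by the mean over the 8 mice, with LPS and LPS + Tan mice in separate colours. Means over the 8 mice span from 0.0447 FPKM for Cr2 to 7.42 FPKM for Cd79b.

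Cd79a was correlated in log2 CPM over the 8 mice with the other 8 genes and with Cd3e and Cxcl13, which makes 10 relations. The values of both groups entered the choice of the 9 genes, Cd79a among them. All 10 relations are therefore a description and carry no test, and r on deviations from the group means is given beside r. The highest was Bank1, with a Pearson r of 0.75, a Spearman rho of 0.83 and an r of 0.81 on deviations. It was 0.87 without LPS replicates 1 and 4, which lay farthest from the median of Cd79a. Cd79b followed with an r of 0.63, a rho of 0.50, an r of 0.65 on deviations and one of 0.57 without these samples. Outside the 9 genes, the T cell gene Cd3e had an r of -0.21 and a rho of -0.07. Its r was -0.24 on deviations and 0.38 without LPS replicates 1 and 4. The follicle chemokine Cxcl13 had an r of -0.30 and a rho of -0.52. Its r was -0.29 on deviations and -0.64 without LPS replicates 1 and 4. Among the 36 pairs of the 9 genes, 31 had a positive r, with a median of 0.41, from -0.44 between Fcer2a and Cr2 to 0.77 between Ms4a1 and Pax5. These pairs share the same 8 libraries and are a description.

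The genes whose log2 CPM over the 8 samples was most like the mean standardized log2 CPM of the 9 genes were sought among 13729 other genes with a mean CPM of at least 1. The 10 highest were Ptk7, with an r of 0.96, Limk1 with 0.95, Spib with 0.94, Col6a2, Fn1 and Col18a1 each with 0.92, Ube3b with 0.92, Prkca and Bace1 each with 0.91 and Col15a1 with 0.89. Of these, Spib, a transcription factor of the Ets family active in B cells, belongs to the related B lineage lists. Spib was at 10.2, 6.16, 7.97 and 7.52 CPM in LPS replicates 1 to 4 and at 7.50, 5.49, 7.22 and 4.29 CPM in LPS + Tan replicates 1 to 4, highest in LPS replicate 1 and lowest in LPS + Tan replicate 4. Of all 13729 genes, 0.452% had an r above 0.8. Of the related B lineage genes among them, 7 of 86 did, and their median r was 0.26, beside -0.01 over all 13729 genes. The pattern is the mean of the 9 genes, whose choice used both groups, and the lists were chosen with earlier results known. All r values and shares given here are therefore a description and carry no test. The r over the 8 samples was 0.81 for Pou2af1, 0.80 for Ebf1, 0.40 for Cxcr5 and 0.32 for Tnfrsf13c. It was 0.21 for the T cell gene Cd3e, 0.11 for Tnfsf13b, -0.28 for Jchain and -0.39 for Cxcl13.

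The wider B lineage was examined in 6 lists of 113 genes, the 9 genes left out, of which 100 were counted and 90 tested. These lists and those of other cell types were chosen with earlier results of these data known. Their p values are therefore given as a description. By edgeR's quasi-likelihood test at an unadjusted p below 0.05, 3 of the 90 were higher in the LPS + Tan group, where 2.87% of all tested genes were, and 4 were lower, where 2.25% of all tested genes were. After Benjamini-Hochberg adjustment over all 15706 genes, 0 of the 90 were past an adjusted p of 0.05 by edgeR, and 0% of all tested genes were, while 804 genes had an unadjusted p below 0.05. DESeq2 called 35 genes of the whole table, limma-voom 0 and limma on log2 FPKM 0. The median log2 fold change of the 90 genes was 0.05, and 42 of them were below 0, so that as a group they lay near the centre of all genes. Without LPS + Tan replicate 4 the higher genes numbered 8, without LPS replicate 3 they numbered 6, without LPS replicate 4 or LPS + Tan replicate 1 they numbered 1, and without LPS replicate 2 they numbered 0. Without LPS + Tan replicate 2 the lower genes numbered 10. The shares of all tested genes in these fits are not given here, so nothing is read from these counts.

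Of the 4 lower genes, Tnfrsf13c encodes BAFF-R, the receptor on B cells for the survival factor BAFF, and Tnfsf13b encodes BAFF itself. Tnfrsf13c was at 3.20, 3.47, 4.23 and 2.98 CPM in LPS replicates 1 to 4 and at 2.02, 2.19, 2.84 and 2.24 CPM in LPS + Tan replicates 1 to 4. The groups did not overlap, and the log2 fold change was -0.58 with an SE of 0.19 (edgeR, adjusted p = 0.924). Tnfsf13b was at 12.5, 11.9, 14.9 and 7.26 CPM in the LPS group and at 7.04, 6.002, 5.79 and 9.90 CPM in the LPS + Tan group. LPS replicate 4 and LPS + Tan replicate 4 lay within the other group, and the log2 fold change was -0.70 with an SE of 0.24 (edgeR, adjusted p = 0.924). Neither difference was past the threshold once all genes were accounted for.

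Of the other lower genes, Pigr, the epithelial receptor that carries IgA and IgM into secretions, was at 419, 492, 489 and 399 CPM in the LPS group and at 185, 398, 338 and 231 CPM in the LPS + Tan group, with a log2 fold change of -0.64 and an SE of 0.22. Cd86, a costimulatory ligand of activated B cells and other antigen-presenting cells, had a log2 fold change of -0.34 with an SE of 0.13. The higher genes were Cd72, an inhibitory coreceptor of B cells, with 0.62 and an SE of 0.24, Rasgrp3, a Ras activator downstream of the receptor, with 0.46 and an SE of 0.20, and Id3, an inhibitor of E proteins, with 0.35 and an SE of 0.15. In mean CPM, Rasgrp3 was at 79.8 in LPS and 110 in LPS + Tan mice, and Id3 at 93.8 and 119. Cd79b, the highest of the 9 genes, was at 9.32 and 8.96 CPM. The part of B cells in the levels of Rasgrp3 and Id3 was not tested. Cd72 was at 2.97, 2.74, 3.16 and 2.54 CPM in the LPS group and at 5.12, 4.96, 5.01 and 2.44 CPM in the LPS + Tan group, so 3 of the 4 LPS + Tan mice were above every LPS mouse and replicate 4 was below them. Its unadjusted p was above 0.05 with limma-voom and without any 1 of LPS replicates 2 and 4 and LPS + Tan replicates 1, 2 and 3, where the log2 fold change was 0.53 to 0.60. The adjusted p was 0.924 by edgeR for each of these 5 genes. Cd86, Rasgrp3 and Id3 were also not past the unadjusted threshold in some alternatives. Cd86 was then at -0.33 to -0.23, Rasgrp3 at 0.29 to 0.49 and Id3 at 0.20 to 0.38.

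By list, at an unadjusted p below 0.05, 1 of 27 other B cell surface genes was higher and 2 were lower. Of 22 receptor signalling genes 1 was higher and 0 were lower, and of 18 transcription factors 1 was higher and 0 were lower. Of 8 tested immunoglobulin and plasma cell genes 0 were higher and 1 was lower, of 7 precursor and germinal centre genes 0 were past this threshold, and of 8 follicle and support ligands 0 were higher and 1 was lower. The summed CPM of these 6 lists gave exact two-sided permutation p of 0.171, 0.314, 0.943, 0.0857, 0.286 and 0.514 in the order given, where 70 arrangements allow a smallest p of 0.0286. The most abundant genes of the lists by mean FPKM were Cd24a, Ptpn6, Id3, Xbp1, Cd93 and Cxcl13, of which Cd24a, Id3, Xbp1 and Cd93 are also made in lung epithelium or endothelium, as is Pigr of the immunoglobulin and plasma cell list, so the sums are not sums over B cells.

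Ebf1, which acts with Pax5 in B cell specification and is also expressed in stromal cells, was at 8.51 ± 1.33 CPM in LPS mice and 8.96 ± 1.95 CPM in LPS + Tan mice (SD, n = 4 each). Pou2af1, a coactivator of octamer binding factors, was at 7.47 ± 1.75 and 5.82 ± 1.74 CPM (SD, n = 4 each), a log2 fold change of -0.36 with an SE of 0.23. With single samples left out, this fold change ran from -0.56, without LPS + Tan replicate 2, to -0.19. Cxcr5, which guides B cells into follicles, had a log2 fold change of -0.05 with an SE of 0.29, and its ligand Cxcl13 was at 93.5 ± 43.3 and 93.3 ± 23.8 CPM (SD, n = 4 each). Jchain, which joins secreted IgM and IgA, was at 17.7, 19.8, 5.44 and 20.9 CPM in the LPS group and at 20.4, 11.98, 16.2 and 21.5 CPM in the LPS + Tan group, with LPS replicate 3 apart from the rest. In each of these genes the means of the groups lay less than 1 SD of the LPS mice apart.

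Lists of 9 other cell types were set beside the B cell genes. The T cell markers, 16 tested genes led by Lck in mean FPKM, summed to 61.4, 71.5, 78.1 and 57.8 CPM in LPS replicates 1 to 4 and to 75.3, 87.9, 71.5 and 56.8 CPM in LPS + Tan replicates 1 to 4 (exact two-sided permutation test, p = 0.571). Cd3e, a chain of the T cell receptor complex, was at 2.44 ± 0.698 CPM in LPS mice and 2.38 ± 0.559 CPM in LPS + Tan mice (SD, n = 4 each). The sums of the NK cell, plasmacytoid dendritic cell, conventional dendritic cell, alveolar macrophage, neutrophil and monocyte markers gave exact permutation p of 0.8286, 0.543, 0.257, 0.914, 0.857 and 0.257, and their most abundant genes by mean FPKM were Gzma, Cox6a2, Zbtb46, Chil3, S100a9 and Ace. In mean CPM, Cox6a2 was at 3.73 in LPS and 4.59 in LPS + Tan mice. The plasmacytoid list summed to 241 and 236 CPM, so other listed genes made up most of that sum. Zbtb46 and Ace are also made in lung endothelium, so these sums are not levels of cell types. The erythroid markers, led by Hbb-bs in mean FPKM, summed to 2608 ± 863 CPM in LPS mice and 1891 ± 389 CPM in LPS + Tan mice (SD, n = 4 each, exact permutation p = 0.2), and 7 of 7 of these genes had a log2 fold change below 0, with a median of -0.47. Without LPS replicate 2 the erythroid sums differed at an exact permutation p of 0.0286, the smallest possible. The markers of lung epithelium and endothelium gave p of 0.686 in the exact permutation test. In these 9 lists 0 genes were past an unadjusted p of 0.05 in either direction by edgeR with all samples. Of all tested genes, 2.87% were higher and 2.25% were lower at this threshold. Hbb-bs, Cox6a2, Zbtb46 and Ace were past it in some alternatives, Hbb-bs at a log2 fold change of -0.76 without LPS replicate 2. The part of other cell types in the values of the B cell genes was not tested.

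The 9 genes lie on 8 chromosomes of GRCm38, the build named in the submitters' processing notes, by the GENCODE M21 annotation. Cd79a is at chr7:24897381-24902197 on the plus strand and Cd22 on the same chromosome at chr7:30865402-30880342 on the minus strand. Cd79b is at chr11:106311341-106314762, Ms4a1 at chr19:11249675-11266241, Pax5 at chr4:44524757-44710487 and Fcer2a at chr8:3681737-3694175. Cr2 is at chr1:195136811-195176716, Blk at chr14:63372836-63417037 and Bank1 at chr3:136053363-136326066, and these 7 are on the minus strand.

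Promoters of RefSeq on GRCm38.p6 were matched for 6 of the 9 genes, 8 sequences in all, and the 250 bases before the start were searched on both strands. The octamer ATGCAAAT was in 0 of the 8, and in 1.601% of all 32851 promoters. The EBF core CCCNNGGG was in 2 of the 8 and in 11.8% of all promoters, the core GAGGAA bound by PU.1 in 1 and in 23.3%, and the E-box CAGGTG in 5 and in 17.2%. The stretches of Cd79a and Bank1 are shown because this pair had the highest r of the 10 relations, and both lie outside the exons and bodies of annotated genes. Capitals mark matches to the searched motifs on either strand, CACCTG being the E-box and TTCCTC the PU.1 core read from the other strand. A match is a description of these letters only. The Cd79a stretch is chr7:24897317-24897374 on the plus strand and the Bank1 stretch chr3:136326180-136326237 on the minus strand, each written 5′ to 3′ on the strand of its gene.
Cd79a: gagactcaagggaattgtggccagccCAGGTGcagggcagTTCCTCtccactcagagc
Bank1: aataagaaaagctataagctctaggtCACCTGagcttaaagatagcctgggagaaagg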

How the data were processed

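The authors deposited raw read counts per gene and FPKM values, and the submitters' processing notes name the build GRCm38 (mm10). Aligner, counter and annotation are unknown from the sources used here. The labels and the methods name different kits for RNA extraction and library preparation. The test was edgeR 4.0.16 (R 4.3.3) on counts (filterByExpr, TMM, quasi-likelihood, no covariate), and p was adjusted by the Benjamini-Hochberg method over all tested genes. The scripts were tested on simulated data. DESeq2 1.42.0, limma 3.58.1, other scalings and filters, FPKM, the replicate block and each sample left out were alternatives. List sums used exact permutation tests (scipy 1.17.1). For correlations, which carry no test, 0.1 was added to CPM before the log2. Relations with Cd79a numbered 10, and 14 listed genes, Ighm among them, were not in the tables. Named genes are the 9 genes, listed genes at an unadjusted p below 0.05, the most abundant gene of each list, 12 genes named singly, of which 8 were used, and the 10 genes of most similar pattern. The members and lists were chosen with earlier results of these data known. Mice were separate. Between samples of a group the median squared deviation was 7.83 to 23.0 times sampling noise, so no library was repeated within a group.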

Additional observations from a re-analysis of the deposited data

Results flagged for a closer look

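In 104 sets of 4 mice, 4 held an extreme mouse by Dixon's ratio, which is its distance from the next value as a part of the whole range, and about 5.2 are expected by chance since the ratio marks about 1 set in 20. In log2 CPM the LPS + Tan replicate 4 was far below its group for Pax5 (ratio 0.988) and Cd72 (0.957). Also in log2 CPM, LPS replicate 3 was far below its group for Jchain (ratio 0.876). The summed CPM of monocyte markers was far above its group in LPS replicate 1 (ratio 0.876). The causes were not tested.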

How the results depend on the processing

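The median log2 fold change of the 9 genes was below 0 under all 18 alternatives, from -0.36 without LPS + Tan replicate 1 to -0.03 without LPS + Tan replicate 4. The sign held under all of them for Cd79a, Ms4a1 and Pax5, and for Fcer2a where it was tested, while that of Cd79b, Cd22, Blk, Bank1 and Cr2 turned under at least 1. With single samples left out, the values ran from -0.18 to 0.05 for Cd79b, -0.23 to 0.03 for Cd22, -0.28 to 0.06 for Blk, -0.35 to 0.18 for Bank1 and -0.41 to 0.53 for Cr2. With at least 1 CPM in 4 samples, 7 of the 9 genes were tested. DESeq2 called 35 genes at an adjusted p of 0.05 with all samples. With edgeR, leaving out single samples gave 0 to 1 genes, with 1 without LPS + Tan replicate 4. Among pairs of LPS + Tan mice, those with replicate 4 differed most over all genes. Their median squared deviations were 19.9, 23.0 and 19.1 times sampling noise. Of the related B lineage genes, 0 to 8 were higher and 3 to 10 were lower with single samples left out. The shares of all tested genes in those fits are not given here, so nothing is read from these counts.

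The replicate numbers are not stated to pair mice. The correlation of deviations within the 4 numbers was 0.13, -0.04, -0.15 and 0.02, and 2 of 8 samples correlated best with their own number. With the replicate block, 4 related genes were higher, 6 were lower and 0 were past an adjusted p of 0.05. The share of all tested genes higher or lower in this fit is not given here either.

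Genes near 0 turned sign. Cxcl13 was at 0.0028 with upper-quartile scaling, 0.032 with sample totals, 0.067 with limma-voom, 0.11 on log2(FPKM + 1), 0.11 on log2(FPKM + 0.1) and 0.082 with the replicate block. Cd3e was at 0.0064 with sample totals, 0.0083 on log2(FPKM + 1) and 0.018 on log2(FPKM + 0.1). With single samples left out, log2 fold changes ran from -0.11 to 0.0087 for Xbp1, -0.21 to 0.33 for Cxcl13, -0.064 to 0.23 for Lck, -0.25 to 0.34 for Gzma, -0.18 to 0.19 for Chil3, -0.072 to 0.14 for S100a9, -0.034 to 0.20 for Ebf1, -0.15 to 0.29 for Jchain, -0.22 to 0.14 for Cxcr5 and -0.21 to 0.10 for Cd3e. The unadjusted p was above 0.05 in some alternatives for Cd72, at log2 fold changes of 0.53 to 0.60, Cd86, at -0.33 to -0.23, Id3, at 0.20 to 0.38, and Rasgrp3, at 0.29 to 0.49. It was below 0.05 in some alternatives, but not in the main fit, for Cd24a, at -0.39, Ptpn6, at 0.29, Cd93, at 0.65, and Pou2af1, at -0.56. The same held for Cox6a2, at 0.29 to 0.39, Zbtb46, at 0.30, Ace, at 0.58, and Hbb-bs, at -0.76 to -0.55. The r of Cd79a with Cd3e was 0.38 without the samples farthest from the median. The difference in summed CPM of plasmacytoid dendritic cell markers was 2.35 with sample totals. With single samples left out, such differences ran from -19.7 to 50.2 for B lineage transcription factors, -23.6 to 41.7 for NK cell, -170.4 to 229 for alveolar macrophage, -200.02 to 460.1 for neutrophil and -1110.4 to -434 for erythroid markers, the last at an exact permutation p of 0.0286, the smallest possible, without LPS replicate 2. The causes were not tested.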
